A study of Mus musculus with 2 samples.

Results

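Ribosomal protein genes on chromosomes 2 to 19 were examined for their contacts with chromosome 1 in mouse embryonic stem (ES) cells. Members were protein-coding genes of the GENCODE annotation of GRCm38 whose symbol starts with *Rpl* or *Rps* and a digit, with the *Rps6k* kinases left out. The rule took 81 of 19599 protein-coding genes on these chromosomes, 48 with an *Rpl* and 33 with an *Rps* symbol. A window of 200 kb was centred on each gene start. Windows of 12 members overlapped in pairs, and each pair was given 1 window centred between its starts. The 81 genes thus gave 75 loci (200 kb each), in which each contact was counted once. Of the members, 66 encode proteins of the cytosolic ribosome, and the other 15 are paralogs, 6 processed copies with a -ps symbol and *Rps19bp1*, which is not a ribosomal protein.

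The assay was Hi-C, in which neighbouring DNA ends of fixed chromatin are ligated and read as a pair. One library came from wild-type ES cells and 1 from *Lin28a* knockout ES cells. *Lin28a* encodes an RNA-binding protein, and the series asks whether higher-order chromatin structure differs without it. Both were grown for 2 days in LIF/2i medium, which keeps ES cells in the naive state, on gelatin with MEF feeder cells, and the share of feeder cells among the nuclei was not measured. The study's ES cells were E14 or, where indicated, V6.5, and it used knockout clones made with CRISPR/Cas9 as well as ES cells from *Lin28* knockout mice; which of these gave this library is not given in the sources used here. The labels speak of 2 replicates a group, while pairs were given as 1 list per group with 2 sequencing runs that are not tied to replicates. With 1 library per group there was no test, and every interval here is at the 95% level and covers counting error only.

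The pair lists analysed here were complete for first ends on chromosome 1 between 3 and 90.75 Mb, and other pairs were not analysed here. They held 2235886 wild-type and 1718683 knockout pairs that joined this segment to chromosomes 2 to 19 (trans pairs). A 200 kb window outside the loci held on average 202 wild-type and 155 knockout pairs. Chromosomes 6 and 8, with 3 members, took larger shares of trans pairs in the knockout library, 1.24-fold and 1.33-fold those of the wild-type library. Knockout over wild-type ratios of loci were therefore scaled to each partner chromosome. Folds over windows of equal gene count were not scaled in this way, except where the same chromosome is named. *Lin28a* itself, at chr4:134003330-134018841, held 12 wild-type and 15 knockout pairs, of which 0 lay in exon 2, which allows up to 3, so these pairs do not check the label. Hi-C pairs hold no marker expression with which to check the cell type.

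Ribosomal protein genes encode the protein subunits of the large (RPL) and small (RPS) ribosomal subunits, which are assembled on rRNA in the nucleolus. They are housekeeping genes scattered over almost all chromosomes, are among the most highly transcribed genes in dividing cells, and many carry snoRNA genes in their introns. Their transcripts typically begin with a run of pyrimidines, the terminal oligopyrimidine (TOP) motif, through which their translation is controlled. Free RPL5 and RPL11, bound to 5S rRNA, and also RPL23 and RPL26, bind the p53 ubiquitin ligase MDM2 when ribosome assembly is disturbed.

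The start regions of members that recur in the results are shown first, as examples of the windows in which pyrimidine runs and motifs were counted. They are the 7 members that the study names and the members with the highest (*Rpl10a*) and the lowest (*Rpl34*) contacts. Each line gives 50 bases before and 30 bases after the RefSeq start in GRCm38.p6, 5′ to 3′ on the strand of the gene, with the longest run of pyrimidines in capitals (the first one in *Rps7* and *Rpl10a*, which hold another as long). The runs differ in length and in place, and only that of *Rps6* spans the start. RefSeq starts can differ from the true start, and where a gene had several the one nearest to the GENCODE start was taken.
Rpl5, chr5:107900478-107900557, plus strand: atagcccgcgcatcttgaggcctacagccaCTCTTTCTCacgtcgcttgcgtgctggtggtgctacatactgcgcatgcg
Rpl11, chr4:136053364-136053443, minus strand: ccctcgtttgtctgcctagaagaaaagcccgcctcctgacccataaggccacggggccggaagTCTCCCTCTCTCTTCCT
Rpl23, chr11:97782410-97782489, minus strand: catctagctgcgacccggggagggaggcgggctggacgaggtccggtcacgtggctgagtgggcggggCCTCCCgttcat
Rpl26, chr11:68901516-68901595, plus strand: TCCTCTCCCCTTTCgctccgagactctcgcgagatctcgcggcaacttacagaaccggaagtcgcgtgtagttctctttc
Rps6, chr4:86857338-86857417, minus strand: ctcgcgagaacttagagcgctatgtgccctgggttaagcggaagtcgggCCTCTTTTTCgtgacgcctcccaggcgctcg
Rps7, chr12:28635924-28636003, minus strand: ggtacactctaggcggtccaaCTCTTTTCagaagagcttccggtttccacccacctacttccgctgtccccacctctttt
Rps19, chr7:24884542-24884621, plus strand: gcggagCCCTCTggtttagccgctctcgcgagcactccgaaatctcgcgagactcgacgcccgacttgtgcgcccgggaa
Rpl10a, chr17:28328421-28328500, plus strand: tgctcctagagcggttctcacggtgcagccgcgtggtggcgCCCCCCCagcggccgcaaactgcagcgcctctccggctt
Rpl34, chr3:130730369-130730448, minus strand: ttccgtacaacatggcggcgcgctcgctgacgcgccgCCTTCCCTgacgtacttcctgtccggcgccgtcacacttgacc

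RefSeq promoter entries matched 57 of the 81 members and 48 of the 66 cytosolic ones. Runs and motifs were counted over every RefSeq start of a gene, and a gene counts as having one where any of its starts does, so a count can rest on a start that is not printed above. The printed windows of *Rpl10a*, *Rps19* and *Rpl34* hold no run of 10 pyrimidines, and those of *Rpl10a* and *Rps19* no CTTTC, while other starts of these genes do. In windows of 80 bases the longest pyrimidine run of a gene had a median of 10 bases in cytosolic members, against 6 bases over all 24104 genes with an entry. These 24104 genes were not limited to protein-coding ones, and the number of starts per gene was not held equal, which limits each comparison with all genes. A run of at least 10 pyrimidines lay in 28 of 48 members (58.3%) and in 17.3% of all genes. The letters CTTTC, searched on the strand of the gene, lay in 22 members (45.8%) and in 11.9% of all genes. Over the full 300 bases, the letters CCGGAAG on either strand lay in 20 members (41.7%) against 10.2% of all genes. The palindrome of 10 bases found in the most members, TCTCGCGAGA, lay in 6 (12.5%), *Rpl10a*, *Rpl12*, *Rpl26*, *Rps6*, *Rps19* and *Rps28*, against 0.519% of all genes, and having been picked for its count among members it is a description. In the windows of 80 bases, on the strand of the gene, TATAAA was present in 1 member (2.08%) and in 3.8% of all genes. These are matches of letters and not binding sites.

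Ribosomal protein gene loci had somewhat more contacts with chromosome 1 than windows holding as many genes. The 75 loci took 20059 wild-type pairs, 1.13-fold (1.11 to 1.14) the 17835 pairs that 200 kb windows with the same number of protein-coding gene starts would hold. In the knockout library they took 15134 pairs, 1.11-fold (1.09 to 1.13) the equal-density count of 13662. Pairs were not divided by all pairs of a window, since only first ends on chromosome 1 were analysed. Whether the loci had more pairs with every partner, and not with chromosome 1 in particular, was not tested. Loci held 1 to 17 coding gene starts (median 5), while the median of all windows was 1, which is why windows of equal gene density were needed. Of the 75 loci, 49 (65.3%) lay above that mean in the wild-type library, where 51.6% of all other windows with a gene did, and 44 (58.7%) lay above it in the knockout library, where 48% of other windows did. In both libraries 41 loci (54.7%) lay above 1, and 23 (30.7%) lay at or under 1 in both. Such joint shares were not computed for other windows, so these counts are a description.

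The size of this difference depended on which windows were taken as equal. Members lay in windows of higher GC content (mean 46.3%) than windows of equal gene count (44.7%), and none of their windows held an olfactory, vomeronasal or taste receptor gene, against 12.2% of windows of equal gene count. Against windows that also shared the third of GC content, a comparison chosen after the data were seen, the values were 1.07-fold (1.05 to 1.08) in wild-type and 1.05-fold (1.03 to 1.07) in knockout cells. With receptor genes left out of gene counts they were 1.09-fold and 1.07-fold. Against windows of similar gene count on the same chromosome they were 1.14-fold in wild-type and 1.15-fold in knockout cells. Without chromosomes 6 and 8 they were 1.13-fold and 1.14-fold, so the order of the libraries depended on the setting. Restriction site number differed little, with a mean of 496 GATC sites in loci and 506 in windows of equal gene count. Ends that both mapped with a quality of at least 30 made up 86.3% of wild-type member pairs and 86.0% of other pairs, and for 85.3% and 84.7% in the knockout library.

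**Figure D1:**
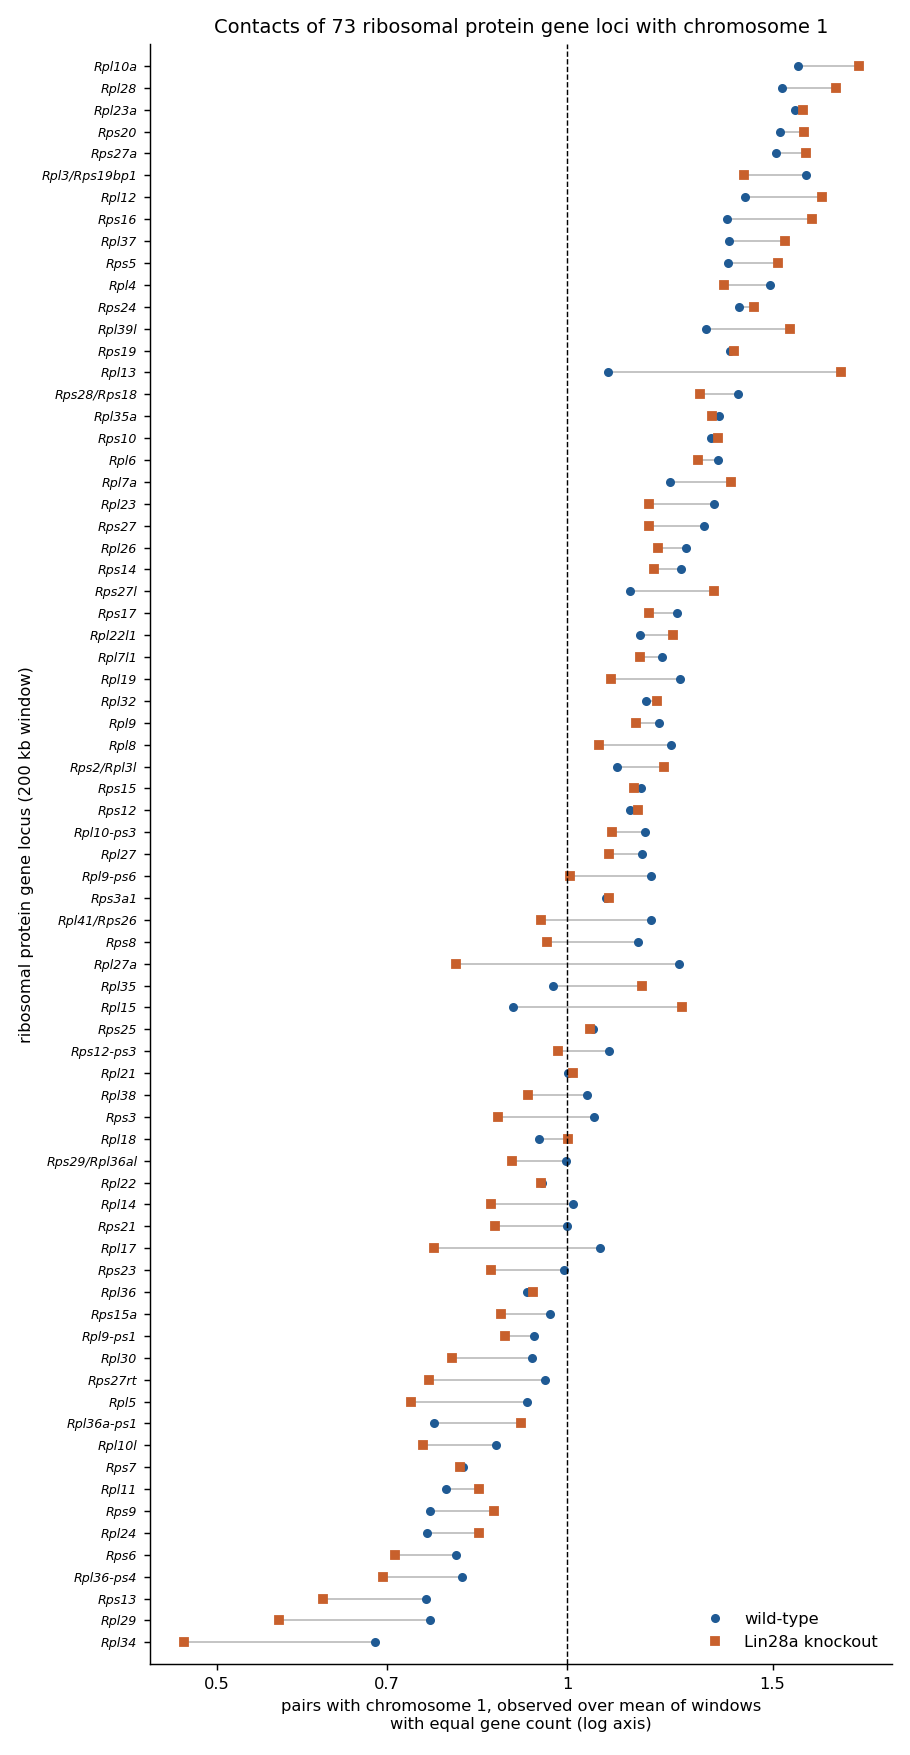
Pairs with chromosome 1 of 73 of the 75 loci over the mean of windows with equal gene count (log axis), in wild-type (circles) and *Lin28a* knockout (squares) cells, ordered by both libraries summed. Values of the loci shown ran from 0.684 to 1.60 in wild-type and from 0.469 to 1.78 in knockout cells, with *Rpl10a* at the top and *Rpl34* at the bottom of the order, and the plotted values are not scaled to the partner chromosome, so the wide gap of *Rpl13* on chromosome 8 shrinks to a knockout over wild-type ratio of 1.19 once they are.

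Individual loci ranged widely, as did other windows. Wild-type windows with 2 coding genes, for example, had a mean of 221 pairs with an SD of 71.6, far more than counting error, so an interval on a single locus does not place it outside that spread. A wild-type locus held 151 to 406 pairs (median 258), and a knockout locus 79 to 343 (median 200). Observed over expected contacts had an SD of 0.238 over loci in wild-type and 0.305 in knockout cells, against 0.324 and 0.384 over other windows with a gene. Over the 75 loci, log2 observed over expected contacts of the libraries had a Pearson r of 0.85, a description over windows that share sequence, mappability and restriction sites between libraries.

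The 5 loci with the highest contacts were those of *Rpl10a*, *Rpl28*, *Rpl23a*, *Rps20* and *Rps27a*. *Rpl10a*, which encodes a protein of the large subunit at chr17:28328471-28331033, had 372 wild-type pairs, 1.58-fold (1.42 to 1.74) those of windows with 5 coding genes, and 326 knockout pairs, 1.78-fold (1.59 to 1.98). *Rpl28*, in a gene-dense window at chr7:4792874-4795066, had 399 wild-type pairs (1.53-fold) and 343 knockout pairs (1.70-fold), the highest knockout count of any locus. *Rpl23a* at chr11:78180932-78183584 carries 3 snoRNA genes in its introns and had 387 pairs (1.57-fold) and 304 pairs (1.59-fold). *Rps20* at chr4:3831334-3835665 and *Rps27a*, which encodes ubiquitin fused to a small subunit protein, at chr11:29545846-29548109, lay in windows of 2 and 4 coding genes. *Rps20* reached 336 pairs (1.52-fold) and 269 pairs (1.60-fold). *Rps27a* reached 350 pairs (1.51-fold) and 284 pairs (1.60-fold). All 5 lay above 1.5 in both libraries.

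Toward the other end were *Rpl34*, *Rpl29*, *Rps13* and the processed copy *Rpl36-ps4*. *Rpl34*, a large subunit gene at chr3:130726831-130730398, had 151 wild-type pairs, 0.684-fold (0.580 to 0.803) those of windows with 2 coding genes, and 79 knockout pairs, 0.469-fold (0.371 to 0.584). It was the lowest count of all loci in both libraries. *Rpl29* at chr9:106429454-106431568 lay among 11 coding genes and still had only 193 pairs (0.763-fold) and 108 pairs (0.566-fold). *Rps13* at chr7:116331505-116334195 had 167 pairs (0.757-fold) and 104 pairs (0.617-fold). *Rpl36-ps4* at chr17:87920977-87921393 had 179 pairs (0.811-fold) and 117 pairs (0.694-fold).

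The 7 ribosomal protein genes that the study names split between the higher and the lower loci. *Rpl5* and *Rpl11*, whose products bind MDM2 together with 5S rRNA, lay on the lower side, *Rpl5* with 214 wild-type pairs (0.924-fold) and 130 knockout pairs (0.734-fold). *Rpl11* had 195 pairs (0.786-fold) and 161 pairs (0.840-fold). *Rpl23* and *Rpl26*, both on chromosome 11, lay on the higher side. *Rpl23* had 339 pairs (1.34-fold) and 224 pairs (1.17-fold), and *Rpl26* had 297 pairs (1.26-fold) and 215 pairs (1.20-fold). Among small subunit genes, *Rps6*, whose product is phosphorylated by S6 kinase, had 177 pairs (0.802-fold) and 120 pairs (0.712-fold). *Rps7* had 202 pairs (0.814-fold) and 155 pairs (0.809-fold). *Rps19*, a gene mutated in Diamond-Blackfan anaemia, was the only 1 of the 3 small subunit genes above 1, with 349 pairs (1.38-fold) and 265 pairs (1.39-fold). These folds were not scaled to the partner chromosome. On the same chromosome, members of chromosome 4 (with *Rpl11* and *Rps6*) went from 1.04-fold and 1.00-fold to 1.23-fold and 1.27-fold. Those of chromosome 11 went from 1.26-fold and 1.20-fold to 1.07-fold and 1.05-fold. The split of the 7 genes thus depends in part on their chromosomes.

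Members whose windows overlap were counted together. The pair *Rpl3*/*Rps19bp1* on chromosome 15 had the highest wild-type count of all loci, 406 pairs (1.60-fold), with 270 knockout pairs (1.42-fold). Their starts lie 172447 bp apart, so the shared window left out part of each gene's own window. The window centred on *Rpl3* held 416 wild-type (1.76-fold) and 272 knockout pairs (1.48-fold). That centred on *Rps19bp1* held 340 (1.37-fold) and 207 (1.08-fold). *Rps28*/*Rps18* on chromosome 17 had 366 pairs (1.40-fold) and 262 pairs (1.299-fold). *Rps2*/*Rpl3l*, also on chromosome 17, had 288 pairs (1.10-fold) and 244 pairs (1.21-fold). *Rpl41*/*Rps26* had 291 pairs (1.18-fold) and 181 pairs (0.949-fold), and *Rps29*/*Rpl36al* had 253 pairs (0.998-fold) and 171 pairs (0.896-fold). Loci that hold a pair of members thus came with values on both sides of 1.

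Cytosolic ribosomal protein genes stood higher than their paralogs and copies. The 66 cytosolic members had 1.14-fold (1.12 to 1.16) contacts in wild-type and 1.12-fold (1.10 to 1.14) in knockout cells. The 15 others had 1.07-fold (1.04 to 1.11) and 1.04-fold (0.996 to 1.07). They are *Rpl3l*, *Rpl7l1*, *Rpl10l*, *Rpl22l1*, *Rpl36al*, *Rpl39l*, *Rps27l*, *Rps27rt*, *Rps19bp1*, *Rpl9-ps1*, *Rpl9-ps6*, *Rpl10-ps3*, *Rpl36a-ps1*, *Rpl36-ps4* and *Rps12-ps3*. Among these, the testis-expressed retrogene *Rpl10l* had 179 wild-type (0.869-fold) and 119 knockout pairs (0.752-fold), and *Rpl39l* had 290 pairs (1.31-fold) and 262 pairs (1.55-fold). By symbol alone, copies and paralogs included, the 48 *Rpl* members had 1.11-fold and 1.10-fold contacts and the 33 *Rps* members 1.14-fold and 1.10-fold, with intervals that overlap in both libraries. In this split, and in that of cytosolic members and others, loci were formed within each group. Neighbours such as *Rpl3* and *Rps19bp1* fall in different groups, so pairs in the overlap of their windows can count in both. The 26 cytosolic members with an annotated snoRNA gene inside, 52 snoRNA genes in all, had 1.18-fold (1.16 to 1.21) contacts in wild-type and 1.17-fold (1.14 to 1.20) in knockout cells. The 40 without had 1.11-fold (1.09 to 1.13) and 1.09-fold (1.07 to 1.12). Against windows of equal gene count and GC content, the snoRNA hosts had 1.13-fold and 1.12-fold and the others 1.04-fold and 1.02-fold, so that this gap kept its direction. Loci are not replicates, and the interval takes account of pair counts alone.

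Members with CTTTC in the 80-base window of any RefSeq start, 22 genes, had 1.18-fold contacts in wild-type and 1.20-fold in knockout cells, and the 26 without had 1.08-fold and 1.05-fold. The 6 members with TCTCGCGAGA had 1.31-fold (1.26 to 1.37) and 1.34-fold (1.28 to 1.42), against 1.10-fold and 1.10-fold for the other 42, though *Rps6* among them was below 1. Members with CCGGAAG were lower, at 1.08-fold and 1.05-fold against 1.16-fold and 1.18-fold without. Members with a run of at least 10 pyrimidines at any start differed little from those without, with 1.13-fold and 1.14-fold against 1.13-fold and 1.11-fold. These splits were made after the contact values were known.

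**Figure D2:**
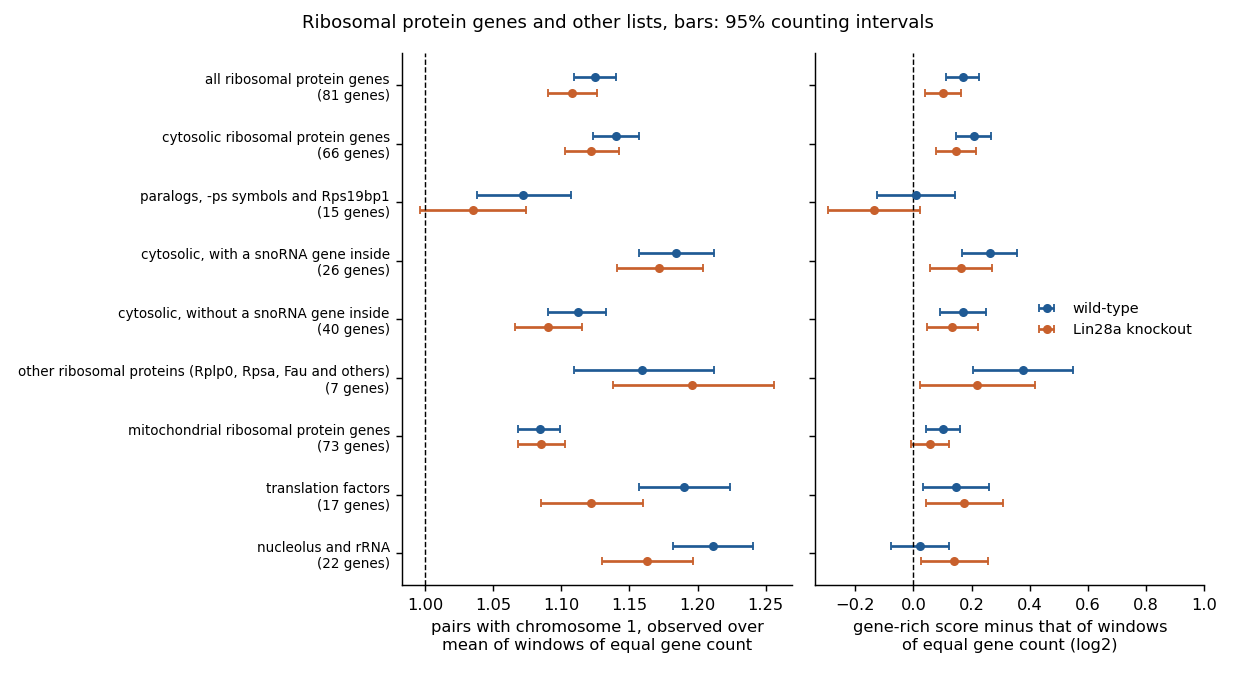
Left, pairs with chromosome 1 over the mean of windows of equal gene count, and right, the gene-rich score minus that of windows of equal gene count (log2), for ribosomal protein genes and other gene lists in wild-type and *Lin28a* knockout cells, with bars for 95% counting intervals. On the left, members with a snoRNA gene inside stood above those without, and nucleolar genes and translation factors reached values as high as the ribosomal protein genes. On the right, nucleolar genes (0.02) and translation factors (0.15) lay below all ribosomal protein genes (0.17) in wild-type cells. In knockout cells they lay above them, at 0.14 and 0.18 against 0.10.

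Other genes of ribosome biogenesis and translation also lay above windows of equal gene count, the mitochondrial ribosomal protein genes lower than the members in wild-type cells and the other lists at similar or higher values. The 73 mitochondrial ribosomal protein genes, which share the name but serve the ribosome of another organelle, had 1.08-fold (1.07 to 1.10) in wild-type and 1.09-fold (1.07 to 1.10) in knockout cells. The 7 ribosomal protein genes listed that the symbol rule misses, among them *Rplp0*, *Rpsa*, *Fau* and *Rack1*, had 1.16-fold (1.11 to 1.21) and 1.20-fold (1.14 to 1.26), with 7 and 6 of the 7 above 1. The 17 translation factor genes had 1.19-fold (1.16 to 1.22) and 1.12-fold (1.09 to 1.16). The 22 genes of the nucleolus and of rRNA synthesis had 1.21-fold (1.18 to 1.24) and 1.16-fold (1.13 to 1.20), with 17 and 15 above 1. Excess contact over equal gene density was therefore not particular to the ribosomal protein genes. *Trp53* and its regulator *Mdm2* together had 592 wild-type pairs (1.20-fold) and 376 knockout pairs (0.993-fold).

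Taken by partner chromosome, members lay above windows of equal gene count on 15 of 18 chromosomes in wild-type, on 13 in knockout cells and on 12 in both. These values were not scaled to the partner chromosome. Chromosome 8, with 2 members, counted as above in knockout cells at 1.21-fold, but had 0.944-fold against windows of similar gene count on chromosome 8. Chromosome 7, with 13 members, had 1.13-fold (1.09 to 1.17) and 1.12-fold (1.08 to 1.17). Chromosome 17, with 9 members, had 1.20-fold and 1.21-fold, and chromosome 11, with 8, had 1.26-fold and 1.20-fold. Against windows of similar gene count on the same chromosome the numbers above 1 were again 15, 13 and 12, but the order of chromosomes changed. Chromosome 11 then had 1.07-fold and 1.05-fold, while chromosome 14, with 3 members, had 1.43-fold and 1.59-fold, the highest of all. Chromosome 9, with 7 members, had 1.01-fold (0.961 to 1.06) and 0.913-fold (0.863 to 0.965).

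Around gene starts, contacts of members with chromosome 1 stayed above the mean of the partner chromosome out to 500 kb on either side. Within 40 kb of member starts the density was 1.36-fold the mean of the partner chromosome in wild-type and 1.40-fold in knockout cells, against 1.19-fold and 1.20-fold for other coding genes and 1.28-fold for mitochondrial ribosomal protein genes in both. At 400 to 500 kb from the start it was 1.23-fold and 1.26-fold for members, 1.20-fold and 1.17-fold for mitochondrial ribosomal protein genes, and 1.14-fold for other coding genes in both. The mitochondrial genes showed no peak at the start, with single steps of 1.35 at 400 to 440 kb downstream in wild-type cells. Within the gene bodies of the 66 cytosolic members, 306608 bp in all, lay 448 wild-type pairs, 1.07-fold (0.971 to 1.17) the density of the rest of their windows. In the knockout library they held 389 pairs, 1.24-fold (1.12 to 1.37).

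**Figure D3:**
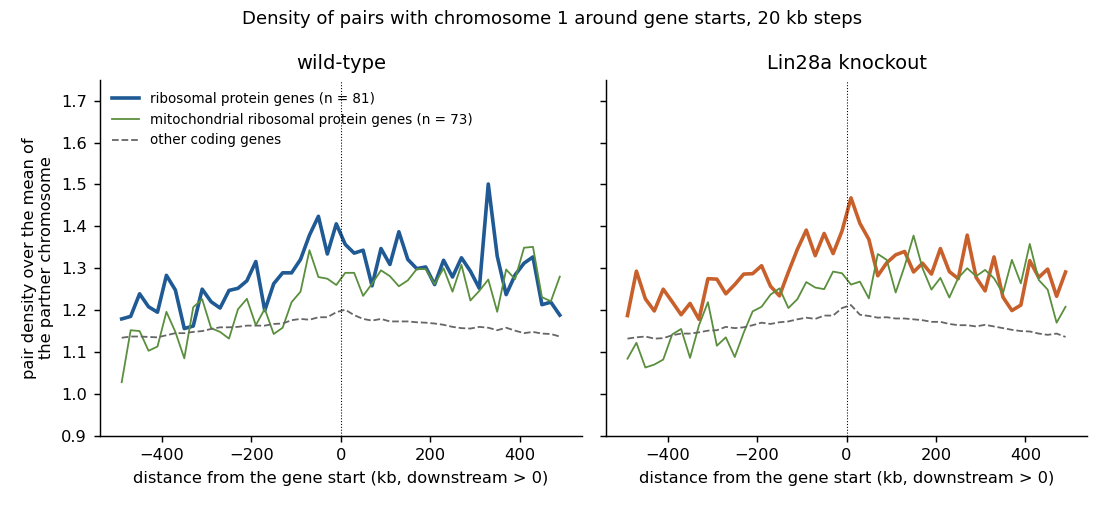
Density of pairs with chromosome 1 around gene starts in 20 kb steps, oriented by strand, over the mean of the partner chromosome, for ribosomal protein genes, mitochondrial ribosomal protein genes and other coding genes. The member curve lies above other coding genes over the whole 500 kb to either side, and its wild-type peak of 1.501 at 320 to 340 kb came from 403 pairs downstream of *Rpl13*, without which it was 1.26.

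Contacts of members were tilted toward gene-rich parts of chromosome 1. The segment was cut into 351 bins of 250 kb, of which 349 had enough pairs. They held 0 coding gene starts in 153 bins, 1 in 80, 2 to 3 in 71, 4 to 5 in 28 and 6 or more in 17. In wild-type cells, bins with 0 genes took 33.6% of member pairs and 37.9% of the pairs of all windows, a share 0.885-fold as large. The relative share was 0.941 for 1 gene, 1.08 for 2 to 3 genes, 1.20 for 4 to 5 and 1.26 for 6 or more. The same order held in knockout cells, with 0.885, 0.921, 1.08, 1.23 and 1.26. Windows of equal gene count showed the order too, from 0.923 to 1.17 in wild-type and from 0.903 to 1.23 in knockout cells. At the gene-rich end members had 1.26 (1.205 to 1.326) against 1.17 in wild-type. In knockout cells they had 1.26 (1.19 to 1.33) against 1.23, a value inside the counting interval.

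**Figure D4:**
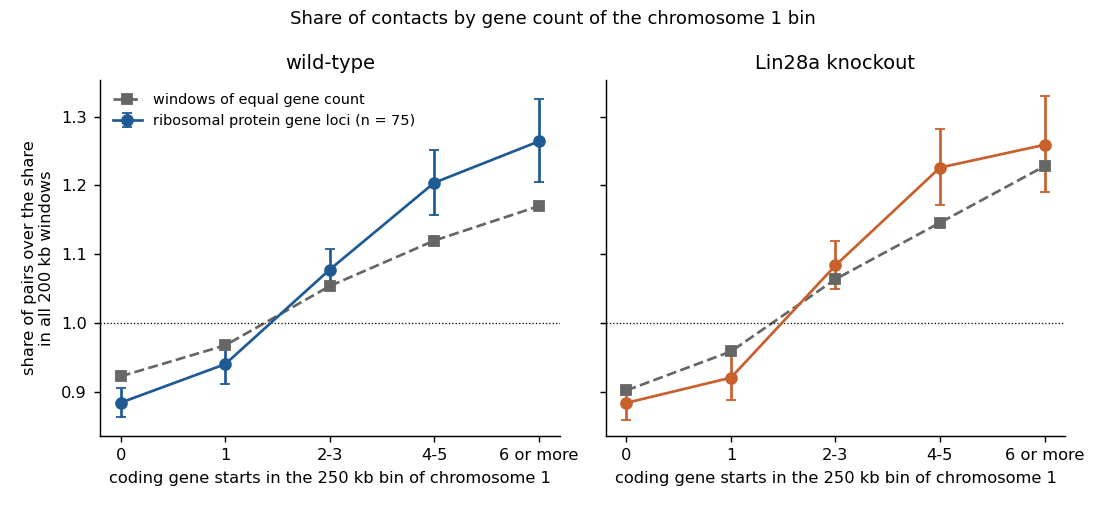
Share of pairs that fall in chromosome 1 bins of each gene count, over the same share in all 200 kb windows, for ribosomal protein gene loci (circles, bars for 95% counting intervals) and windows of equal gene count (squares) in each library. Both sets climb with gene count, and the members pass from 0.885 at 0 genes to 1.26 at 6 or more genes in both libraries.

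A gene-rich score was taken as log2 of contacts per bin with 4 or more coding genes (45 bins) over contacts per bin with 0 genes. Being a ratio within a window, it does not depend on copy number of the window. Members together had 1.07 (1.01 to 1.13) in wild-type, against 0.90 in windows of equal gene density and 0.60 in all windows. In knockout cells they had 1.11 (1.05 to 1.18), against 1.01 and 0.63. The excess over windows of equal density was 0.17 (0.11 to 0.22) in wild-type and 0.10 (0.04 to 0.17) in knockout cells. It was 0.10 and 0.03 with receptor genes left out of gene counts. Against windows of equal gene count and GC content it was 0.07 in wild-type and -0.01 in knockout cells, where its direction turned. In the smaller sequencing run alone, with 675 knockout member pairs, the knockout excess was -0.10 (-0.40 to 0.21). It was 0.055 (-0.012 to 0.123) with chromosome 17 left out, and 0.065 (-0.024 to 0.153) with 6 or more genes as the limit for gene-rich bins.

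The knockout minus wild-type difference of the member score was 0.04 (-0.04 to 0.13). Windows of equal density differed by 0.11, and the difference of both was -0.07 (-0.15 to 0.02). Both intervals include 0, but some alternatives gave intervals that do not. The difference of both was -0.102 (-0.192 to -0.012) with chromosome 17 left out and -0.086 (-0.17 to -0.001) with receptor genes left out and GC content held equal, and the member difference was 0.066 (0.005 to 0.127) in 400 kb windows. With 1 library per group, none of these can be set against the spread between replicates.

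Single loci varied around this value. Scores of the 75 loci ran from 0.21 to 1.69 in wild-type (median 1.04) and from -0.49 to 2.40 in knockout cells (median 1.06). Among the 74 loci with at least 100 pairs in each library, 50 (67.6%) exceeded windows of equal gene count in wild-type, where 51.3% of other windows did, and 45 (60.8%) did in knockout cells, where 51.8% of other windows did. The highest scores over both libraries were those of *Rpl11*, *Rpl12* and *Rpl13*. *Rpl11* had 43 pairs with gene-rich and 65 with gene-free bins in wild-type, a score of 1.18 (0.62 to 1.73), and 56 and 36 in knockout cells, a score of 2.40 (1.795 to 2.996). *Rpl12*, with 1 snoRNA gene, scored 1.67 and 1.71, and *Rpl13* 1.66 and 1.64.

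The lowest scores were those of *Rpl37*, *Rpl22l1* and *Rpl15*. *Rpl37* at chr15:5116645-5119140, although it had 1.38-fold and 1.54-fold contacts, scored 0.53 (0.07 to 1.00) in wild-type and -0.49 (-1.09 to 0.12) in knockout cells, where 26 pairs went to gene-rich and 126 to gene-free bins. *Rpl22l1*, a paralog of *Rpl22*, scored 0.52 and -0.33, and *Rpl15* 0.30 and 0.12. Of the p53-related members, *Rpl5* scored 1.14 and 1.51, *Rpl23* 1.38 and 1.72, and *Rpl26* 1.18 and 1.61. *Rps6* scored 0.80 and 1.03, *Rps7* 1.04 and 0.63, and *Rps19* 1.10 and 1.21.

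**Figure D5:**
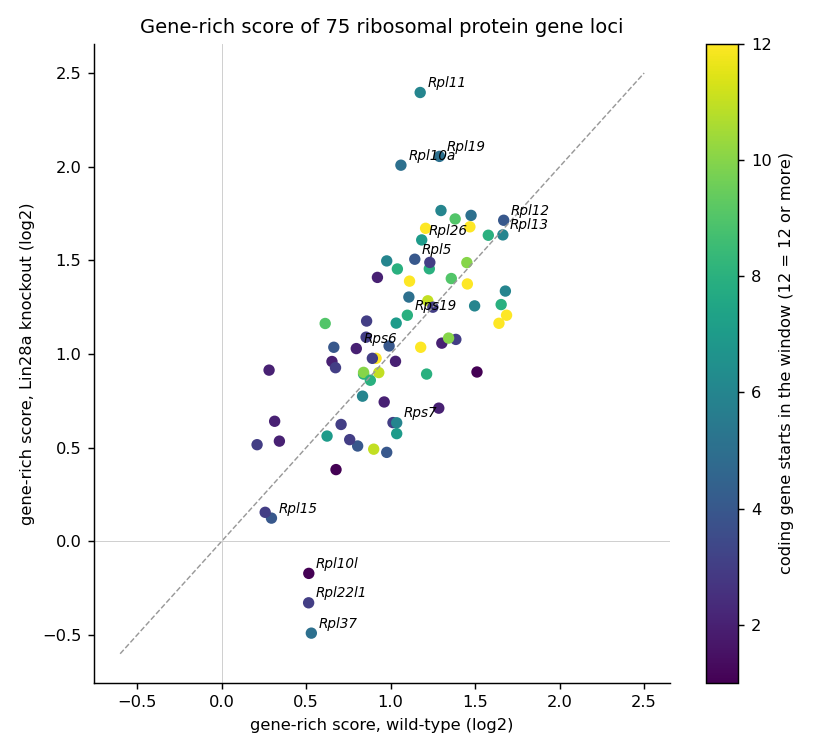
Gene-rich score (log2) of each of the 75 loci in wild-type (x axis) and *Lin28a* knockout cells (y axis), coloured by the number of coding gene starts in the window, with the dashed line at equal scores. *Rpl11* stands highest in knockout cells at 2.40, and *Rpl37*, *Rpl22l1* and *Rpl10l* are the 3 loci below 0 there.

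The score was also higher where members had more neighbours (Pearson r of 0.428 in wild-type and 0.382 in knockout cells between score and log2 gene number over 75 loci that share libraries, as a description). Cytosolic members scored 1.13 and 1.18, and the 15 others 0.84 and 0.79. The excess over windows of equal gene count was 0.21 (0.15 to 0.27) and 0.15 (0.08 to 0.21) for cytosolic members, and 0.01 (-0.13 to 0.14) and -0.14 (-0.30 to 0.02) for the others. For nucleolar and rRNA genes it was 0.02 (-0.08 to 0.12) and 0.14 (0.03 to 0.26), and for mitochondrial ribosomal protein genes 0.10 (0.04 to 0.16) and 0.06 (-0.01 to 0.12). Translation factor genes had 0.15 (0.03 to 0.26) and 0.18 (0.04 to 0.31), and the 7 ribosomal protein genes that the symbol rule misses had 0.38 (0.21 to 0.55) and 0.22 (0.02 to 0.42). All members together had 0.17 and 0.10. Of the lists of other genes, the 7 further ribosomal protein genes lay above that in both libraries. So did *Trp53* and *Mdm2* together, with 0.45 (0.14 to 0.76) and 0.20 (-0.19 to 0.60). Nucleolar and translation factor genes lay below the members in wild-type and above them in knockout cells, and mitochondrial ribosomal protein genes lay below them in both.

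Of the ribosomal protein genes on chromosome 1, *Rpl7*, *Rpl31* and *Rpl37a* lie within the segment of chromosome 1. Their bins took 266 wild-type pairs from the 75 loci, 1.18-fold (1.05 to 1.34) the count from windows of equal gene density, and 207 knockout pairs, 1.16-fold (1.01 to 1.33). The 89 other bins with 2 to 4 genes had 1.16-fold and 1.14-fold, values that lie inside the intervals of the 3 bins. Against windows of equal gene count and GC content, the 3 bins had 1.08-fold (0.957 to 1.22) and 1.07-fold (0.928 to 1.23). The bin of *Rpl31* had 125 and 93 pairs (1.24-fold and 1.16-fold), that of *Rpl37a* 91 and 74 (1.26-fold and 1.22-fold) and that of *Rpl7* 50 and 40 (0.972-fold and 1.09-fold). Bins of 3 related genes, looked up after the values were seen, gave 158 and 105 pairs for nucleolin (*Ncl*, 1.42-fold and 1.21-fold). They gave 133 and 125 for the box C/D snoRNP protein gene *Nop58* (1.27-fold and 1.37-fold), and 128 and 94 for the elongation factor gene *Eef1b2* (1.41-fold and 1.21-fold). Single bins with 2 to 4 genes spanned 0.781 to 1.52 in wild-type and 0.626 to 1.44 in knockout cells.

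Few members differed between the libraries by the fold used here. The knockout over wild-type ratio of contacts, scaled to the totals of each partner chromosome, ran from 0.699 to 1.33 over the 74 loci with at least 100 pairs in each library (median 0.984). A ratio of at least 1.3 was met by 1 locus (1.35%), where 2.36% of 9022 other windows met it, and a ratio of at most 1/1.3 by 3 loci (4.05%), where 2.59% did. These shares are near the background, and the balance of directions depended on the setting, with 3 higher and 3 lower loci where both ends had a quality of at least 30, and 5 and 3 in 100 kb windows. Shares of other windows were not computed for those 2 settings, so their counts are a description. The only locus past the higher bound was *Rpl15* at chr14:18267823-18271391, with 208 wild-type and 222 knockout pairs, a ratio of 1.33 (1.10 to 1.60). The 3 lower loci were *Rpl27a*, with 279 and 138 pairs and a ratio of 0.699 (0.570 to 0.857), *Rpl29*, with 193 and 108 pairs (0.719), and *Rpl17*, with 247 and 136 pairs (0.746). *Rpl34*, at 79 knockout pairs, fell short of the minimum and had a ratio of 0.717 (0.546 to 0.941). Except for *Rpl27a*, these ratios, of 1 library against 1, have intervals that reach to within 0.1 of equality.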

How the data were processed

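Hi-C libraries of wild-type and *Lin28a* knockout mouse ES cells (1 each) were compared. The submitters' processing notes name CASAVA 1.8, Bowtie2, HiC-Pro and mm10. The authors deposited valid pairs, 1 line per pair with the position of each end in bp and a mapping quality score per end. Per the deposited lists, no pair had been normalized. The lowest quality score was 11. The 2 lists held 5767991 and 4412861 pairs with first ends in the segment.

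Second ends in 200 kb windows were counted against 250 kb bins of chromosome 1 with Python 3.11.15, numpy 2.4.6, pandas 2.3.3 and scipy 1.17.1. Windows were centred on GENCODE (GRCm38) starts, or between the starts of members that share a locus. Expected counts were means over the 10887 other 200 kb windows with the same number of protein-coding starts, pooled from 12 upward. Count intervals were exact Poisson (95%) and score intervals used the delta method, both for counting error only. The steps were tested on simulated data. Named genes were the 5 highest and 5 lowest loci over both libraries, the 3 highest and lowest scores, loci past 1.3-fold, members sharing a window, paralogs and members the study names. Promoter motifs and the chromosome 1 genes *Ncl*, *Nop58* and *Eef1b2* were added after the values were seen. Members and lists were chosen with earlier results of these data known. Alternatives changed windows, backgrounds, quality, runs, chromosomes and thresholds. Values of some named loci are not reported here.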

Additional observations from a re-analysis of the deposited data

How the results depend on the processing

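Over 20 alternative settings and 171 recomputed values, 136 kept their direction and moved by less than the counting interval, 30 moved further and 5 reversed. Counts of loci were taken as kept where they stayed within 1.5 times. The knockout minus wild-type member score does not use the background. In settings that changed only the background it was thus fixed in advance, and it is among the 136. Contacts over windows of equal gene count stayed above 1 in both libraries in the 16 settings that recomputed them, from 1.06 to 1.14 in wild-type and from 1.05 to 1.15 in knockout cells. Background windows centred on other coding gene starts gave 1.14 in wild-type and 1.12 in knockout. Background on the same chromosome gave 1.14 and 1.15, and leaving out chromosomes 6 and 8 gave 1.13 and 1.14. Leaving out 1 partner chromosome at a time gave a lowest value of 1.11 in wild-type, and 1.08 to 1.13 in knockout. With receptor genes left out of gene counts, contacts were 1.09 and 1.07 and the excess of the gene-rich score 0.104 and 0.025 (wild-type, knockout). Backgrounds split also by GC content, in 3 classes, chosen after seeing the data, gave contacts of 1.07 and 1.05 and an excess of 0.072 and -0.013. With receptor genes left out as well they gave 1.06 and 1.05, and 0.068 and -0.018. The score itself was 1.13 and 1.18 for cytosolic members alone, 0.96 and 1.00 with 3 or more genes as gene-rich, and 1.17 and 1.20 with 6 or more. Without the larger run of each library, which leaves 1747 and 675 member pairs, the score was 1.16 and 0.97, its excess 0.25 (0.06 to 0.43) and -0.10 (-0.40 to 0.21), and contacts in knockout 1.15. The knockout minus wild-type score was then -0.19, and -0.34 relative to windows of equal density, and the bins of *Rpl7*, *Rpl31* and *Rpl37a* held 2 knockout pairs (0.27 of expected). The cause of these differences was not tested. Loci past 1.3-fold between libraries, 4 as reported, numbered 6 at a quality of 30 or more, 8 with 100 kb windows, 0 with 400 kb windows and 0 at 1.5-fold. The minimum of 100 pairs was scaled to the window size. Shares of other windows were not computed for these settings, so the counts are a description. Without the larger run such loci could not be counted, as no locus had 100 pairs. No paired analysis was possible because each group had 1 library. Depth limits single loci, whose scores rest on few pairs (56 and 36 for *Rpl11* in the knockout library).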
